A study of Homo sapiens with 24 samples.

Results

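A set of genes that have been reported as repressed by androgen in prostate cells, OPRK1, DDC, CAMK2N1, PEG10 and MET, were followed by symbol through every library of the series. They were 5 of the 22227 genes listed for the ligand experiment and 5 of the 23028 listed for the siRNA experiment, and the rule names them without a threshold on any measured value. All 5 passed the filter on low values in both experiments, where 15555 and 20369 genes were tested.

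LNCaP is an established androgen-responsive human prostate adenocarcinoma line, and all libraries were poly(A) RNA-seq of this one line after 3 days in charcoal-stripped serum, which is depleted of steroids. In the ligand experiment cells received vehicle, 10 μM enzalutamide (an antiandrogen, called the antagonist here) for 4 h or 24 h, or 10 nM dihydrotestosterone (DHT, a potent androgen, called the agonist here) for 4 h or 24 h, with 2 replicates per ligand and time. The time of the vehicle is not given. The labels list 4 biological replicates of vehicle, while the headers of the 4 vehicle columns number 3 of them replicate 1 (under the prefixes ZC1, ZC2 and ZC3) and 1 of them replicate 2. The 3 columns differed from each other by a mean chi-square per gene of 1.53 to 1.56, more than the 1 that counting alone gives. Against the replicate 2 column they gave 3.56 to 3.74, and the pairs of the other conditions gave 2.03 to 9.82, the widest between the enzalutamide 4 h libraries. This measure grows with depth, and each of the 3 columns holds only part of their 59985287 counts. The comparison with the deeper pairs therefore cannot decide whether the 3 columns are 1 sample. Following their headers, they were summed and counted as 1 replicate, so that vehicle also has 2. With the 4 columns kept as 4 samples, the 5 genes kept every call, and DDC and CAMK2N1 were also called lower after 4 h of DHT (−0.090 and −0.092 on the log2 scale). In the siRNA experiment cells were transfected with a non-targeting siRNA pool (siControl) or a pool against GATA2 (siGATA2), a zinc-finger pioneer transcription factor, and 72 h later were given either vehicle or enzalutamide at 25 μM over 24 h, with 3 replicates in each of the 4 conditions. The labels call the replicates biological without naming separate cultures, so the p-values measure the spread between these samples. The enzalutamide doses of the 2 experiments differ, and no condition combined DHT with siGATA2.

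Androgen raises transcription at genes such as KLK3 and TMPRSS2, and it lowers the transcripts of another group of genes, directly or through secondary factors. Genes of the second group tend to rise again when androgen is withdrawn or its action is blocked, and several of them, including neuropeptide receptors and growth factor receptors, have been studied in castration-resistant prostate cancer for that reason. OPRK1 encodes the kappa-opioid receptor, a dynorphin receptor that signals through inhibitory G proteins. DDC encodes aromatic L-amino acid decarboxylase, which makes dopamine and serotonin. CAMK2N1 encodes an inhibitor of the kinase CaMKII. PEG10 is an imprinted, retrotransposon-derived gene with a gag-like product, and MET encodes the receptor tyrosine kinase for hepatocyte growth factor.

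In the human annotation (GRCh38, GENCODE) CAMK2N1 lies on chromosome 1 from 20482391 to 20486220. DDC (50458436 to 50565457), PEG10 (94656325 to 94669695) and MET (116672390 to 116798386) lie on chromosome 7. The expression tables themselves hold no coordinates and were made on hg19, so these positions serve only as annotation. The RefSeq promoter table (GRCh38.p14) gave 2 start sites for DDC and 1 for MET. Their 250 bases before the start are shown. Both genes fell with DHT in the values that follow, and their windows differ in composition. No window is shown for OPRK1, CAMK2N1 or PEG10, and the search for sites below does not cover them. Capitals mark CpG dinucleotides.
DDC promoter 1, chr7:50565406-50565655, minus strand: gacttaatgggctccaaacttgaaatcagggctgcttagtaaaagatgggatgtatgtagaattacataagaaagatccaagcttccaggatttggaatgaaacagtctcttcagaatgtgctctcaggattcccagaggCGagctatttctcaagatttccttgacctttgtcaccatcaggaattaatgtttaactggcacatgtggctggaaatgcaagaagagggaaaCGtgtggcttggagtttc
DDC promoter 2, chr7:50561072-50561321, minus strand: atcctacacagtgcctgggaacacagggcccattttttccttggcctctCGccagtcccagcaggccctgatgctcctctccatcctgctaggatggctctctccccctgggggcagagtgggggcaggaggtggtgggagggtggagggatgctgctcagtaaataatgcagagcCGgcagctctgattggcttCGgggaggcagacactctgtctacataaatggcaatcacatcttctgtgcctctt
MET promoter, chr7:116671946-116672195, plus strand: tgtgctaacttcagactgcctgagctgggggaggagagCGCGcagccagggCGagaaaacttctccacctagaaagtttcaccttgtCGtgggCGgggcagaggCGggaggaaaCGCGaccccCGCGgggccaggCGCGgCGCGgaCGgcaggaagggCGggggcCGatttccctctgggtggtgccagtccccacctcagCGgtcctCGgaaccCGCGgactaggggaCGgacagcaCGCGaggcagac
The DDC windows held 2 and 3 CpG with a GC content of 42.4% and 58%, and the MET window held 24 CpG with 68.4%. Among 35116 RefSeq promoters of the same length, 14.7%, 22.9% and 76.3% had fewer CpG than these 3 windows. Neither the androgen-response half-site AGAACA nor the GATA site AGATAA nor the shorter GATA core, searched on both strands, occurred in any of the 3 windows, and the palindromic androgen-response element, AGAACA followed after 3 bases by TGTTCT, did not occur either. Of all promoters, 12.4% held the androgen-response half-site, 9.17% held AGATAA, 45.6% held GATA (to which every AGATAA also counts) and 0.00285% held the palindrome.

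After summing, the libraries of the ligand experiment held 38894876 to 59985287 estimated counts. The highest value is that of the 3 summed vehicle columns, each of which holds only part of it. The siRNA libraries held about 58800000 to 76800000 mapped reads as read from the steps of low RPKM values. Known androgen-induced genes moved with the ligands as labelled: KLK3 (prostate-specific antigen) went from a mean of 256 CPM with vehicle to 2117 CPM after 24 h of DHT and 110 CPM after 24 h of enzalutamide, and TMPRSS2 and FKBP5 went from 75.1 and 90.6 CPM to 381 and 346 CPM after 24 h of DHT. GATA2 itself had a mean of 82.3 RPKM in siControl and 51.4 RPKM in siGATA2 cells with vehicle, and 129 against 62.1 RPKM with enzalutamide; the fitted folds were 0.625 and 0.481. All 9 luminal prostate markers reached 1 CPM and 1 RPKM, while the 3 basal markers summed to at most 0.484 CPM and 0.113 RPKM and the 2 endothelial markers to at most 0.127 CPM and 0.0583 RPKM. Of the 3 immune markers, PTPRC and CD3E were at or near 0 and CD68 carried the sum, which was 3.54 to 3.84 RPKM in siControl cells and 10.5 to 12.2 RPKM in siGATA2 cells with vehicle, and 1.47 to 1.49 CPM with vehicle against 2.80 to 2.87 CPM after 24 h of DHT. Of the 3 neuroendocrine markers (CHGA, SYP and ENO2), CHGA was near 0 and ENO2 carried the sum, which was 55.6 to 58.8 CPM with vehicle and 41.4 to 42.2 CPM after 24 h of DHT, and 26.1 to 30.8 RPKM in siControl against 43.4 to 51.9 RPKM in siGATA2 cells with vehicle. Of the 2 tested with ligand, only ENO2 was called after 24 h of DHT, as lower. The median log2 fold change of these 2 was 0.05, so the other did not fall with it. Of the 3 fibroblast markers, COL1A1 alone was above a trace, and its list summed to 23.6 to 24.2 CPM with vehicle and 14.4 to 16.1 CPM after 24 h of DHT, and to 9.62 to 10.6 RPKM in siControl against 12.8 to 16.3 RPKM in siGATA2 cells with vehicle.

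DHT for 24 h lowered 4 of the 5 genes: OPRK1 to 0.216 of its vehicle level, CAMK2N1 to 0.333, DDC to 0.352 and MET to 0.495. PEG10 did not pass the test. Of all genes tested, 23.2% were called lower in this comparison, 26.9% higher and 50.0% in either direction, at an adjusted p below 0.05 in edgeR, so being called was common, and the sizes say more than the calls. Only 0.591% of all genes had a fold change as low as that of OPRK1, 1.41% as low as that of CAMK2N1, 1.62% as low as that of DDC and 4.03% as low as that of MET, against 23.6% for PEG10. By p-value CAMK2N1 ranked 5 and DDC ranked 9 among the 15555 genes.

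**Figure D1:**
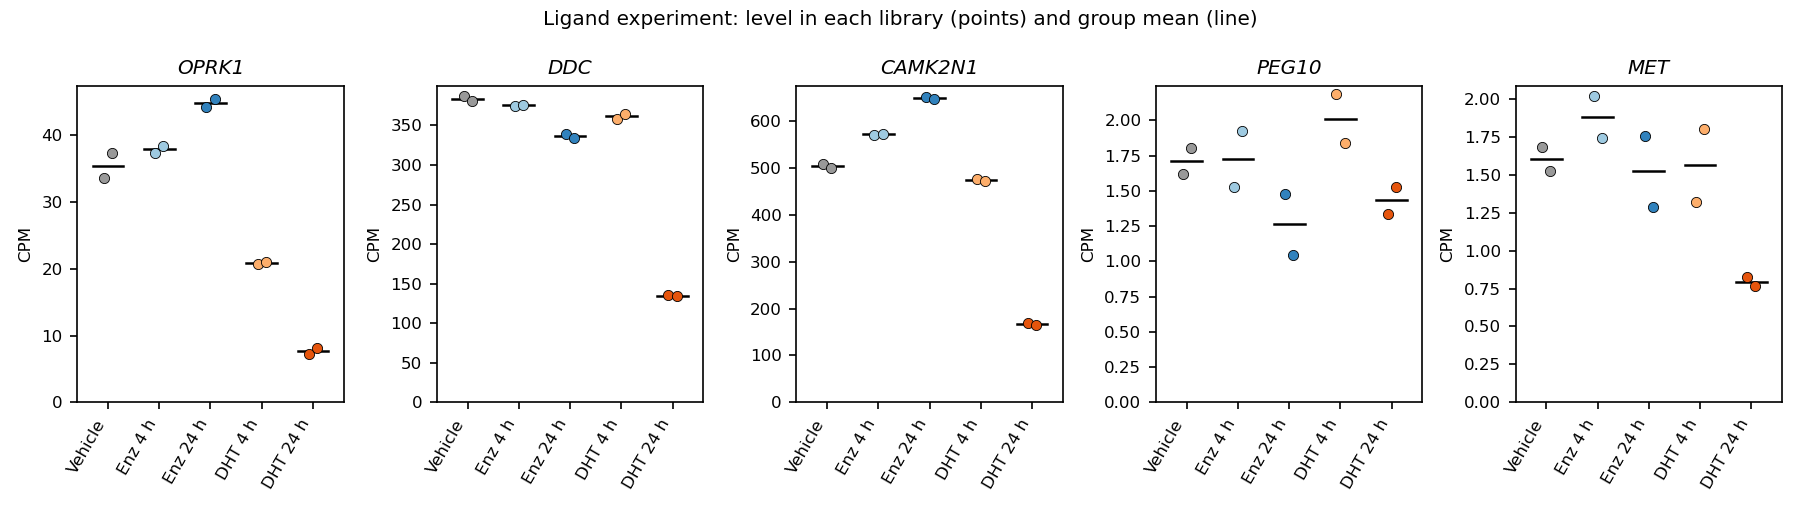
Level of each gene in counts scaled to library size (CPM, linear axis from 0) in the 10 ligand libraries, with points for the 2 replicates and a line for their mean. OPRK1, DDC, CAMK2N1 and MET were lowest in both DHT 24 h libraries, while the PEG10 libraries lay between 1.05 and 2.19 CPM with wide spread inside each pair.

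OPRK1, which the same annotation places on chromosome 8 from 53225716 to 53251697, was the gene that had already moved at 4 h. Its level was 33.5 and 37.3 CPM with vehicle, 20.7 and 21.0 CPM after 4 h of DHT, and 7.17 and 8.21 CPM after 24 h of DHT. The DHT libraries lay below both vehicle libraries at either time, and the 24 h libraries lay below the 4 h libraries. At 4 h the log2 fold change was −0.76 ± 0.06 (SE, adjusted p = 3.27e-06), and OPRK1 was the only one of the 5 genes called, in a comparison where 6.77% of all genes were called, 4.66% higher and 2.11% lower. At 24 h the log2 fold change was −2.21 ± 0.07 (adjusted p = 8.45e-11). Between the times OPRK1 fell by 1.45 on the log2 scale (adjusted p = 1.03e-08).

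Enzalutamide moved OPRK1 the other way and less far. Its level was 37.3 and 38.4 CPM at 4 h and 44.2 and 45.4 CPM at 24 h, and the 24 h libraries lay above all others of the experiment. Relative to vehicle its log2 fold change was 0.10 at 4 h (adjusted p = 0.307, 95% interval −0.03 to 0.23) and 0.35 ± 0.06 at 24 h (adjusted p = 0.000651). The order of the 5 condition means was enzalutamide 24 h, enzalutamide 4 h, vehicle, DHT 4 h and DHT 24 h, with no overlap between neighbours, although the higher vehicle library and the lower enzalutamide 4 h library both measured 37.3 CPM. DHT against enzalutamide at 24 h, the widest contrast of the series for this gene, gave −2.55 ± 0.07 (adjusted p = 3.70e-12), or a level of 0.170 of that with the antagonist.

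CAMK2N1 was abundant, above 98.4% of tested genes in mean CPM, and its replicates were close. It measured 508 and 499 CPM with vehicle, 476 and 472 CPM after 4 h of DHT, and 170 and 165 CPM after 24 h of DHT. The 4 h libraries lay just below vehicle and the fitted change of −0.09 missed the threshold (adjusted p = 0.104), whereas the 24 h libraries were separated from all others (−1.59 ± 0.03, adjusted p = 6.54e-13). The fall between 4 h and 24 h of DHT, −1.50 ± 0.03, had the smallest p-value of all genes tested in that comparison (adjusted p = 6.86e-12).

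With enzalutamide CAMK2N1 measured 570 and 572 CPM at 4 h and 650 and 646 CPM at 24 h. All 4 of these libraries lay above vehicle, by 0.18 ± 0.03 (adjusted p = 0.00152) and 0.36 ± 0.03 (adjusted p = 5.92e-07) on the log2 scale. CAMK2N1 was the only one of the 5 genes called at 4 h of enzalutamide, where 13.6% of all genes were called, 6.94% higher and 6.68% lower. At 24 h OPRK1 and CAMK2N1 were called higher (background 16.4%) and DDC was called lower (background 17.0%), and 33.4% of genes were called in all. Between 4 h and 24 h of enzalutamide, where 24.6% of all genes were called, 11.7% higher and 12.9% lower, OPRK1 rose further (0.24, adjusted p = 0.00938), as did CAMK2N1 (0.18, adjusted p = 0.000513), and DDC fell (−0.16). Against vehicle at 24 h the folds were 1.27 and 1.29, and the call for OPRK1 between the times was lost when the second 24 h library was left out (0.22, adjusted p = 0.0839).

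DDC was lowered by the agonist and also, by a small amount, by the antagonist. It measured 387 and 380 CPM with vehicle, 358 and 364 CPM after 4 h of DHT, and 136 and 134 CPM after 24 h of DHT. Again the 24 h libraries stood far below the others, at −1.51 ± 0.03 (adjusted p = 1.07e-12), while the 4 h value of −0.09 missed the threshold (adjusted p = 0.126). Enzalutamide gave 375 and 376 CPM at 4 h and 339 and 334 CPM at 24 h, where all libraries lay below vehicle. The log2 fold change was −0.03 at 4 h (adjusted p = 0.544) and −0.19 ± 0.03 at 24 h (adjusted p = 0.000339). Of these 5 genes DDC was thus the one called in the same direction with agonist and antagonist, and it was 0.401 of its enzalutamide level in the direct comparison of DHT with enzalutamide at 24 h (adjusted p = 9.69e-13).

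MET was scarce, with 30 to 102 estimated counts per library, and its error was correspondingly wide. It measured 1.68 and 1.52 CPM with vehicle, 1.32 and 1.80 CPM after 4 h of DHT, and 0.823 and 0.764 CPM after 24 h of DHT. The 24 h libraries lay below all other libraries, at −1.01 ± 0.23 (adjusted p = 0.00235), and the 4 h libraries straddled those of vehicle. With enzalutamide MET measured 2.02 and 1.74 CPM at 4 h and 1.75 and 1.29 CPM at 24 h. Neither passed the test against vehicle, with 95% intervals of −0.21 to 0.65 and −0.52 to 0.36 on the log2 scale, so changes of the size seen for OPRK1 and CAMK2N1 with enzalutamide were not detectable for MET at this depth.

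PEG10 was as scarce, with 52 to 116 estimated counts per library, and showed no call against vehicle. It measured 1.62 and 1.80 CPM with vehicle, 1.53 and 1.92 CPM after 4 h of enzalutamide, 1.48 and 1.05 CPM after 24 h of enzalutamide, 2.19 and 1.84 CPM after 4 h of DHT, and 1.34 and 1.53 CPM after 24 h of DHT. The DHT 4 h mean was highest, with libraries that overlapped those of enzalutamide at 4 h, and the 24 h libraries of either ligand lay below vehicle, each with a pair spread that covered much of the difference. At 24 h of DHT the log2 fold change was −0.26 with a 95% interval of −0.70 to 0.18 (adjusted p = 0.318), and at 24 h of enzalutamide it was −0.42 with an interval of −0.87 to 0.02 (adjusted p = 0.131), which ran from −0.71 without the first to −0.21 without the second enzalutamide 24 h library. PEG10 was thus not called lower with DHT against vehicle, whatever its reported class. The interval leaves room for a fall of up to 0.70 and does not reach the fall of OPRK1, CAMK2N1 or DDC.

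Between 4 h and 24 h of DHT all 5 genes were called lower, in a comparison where 23.5% of all genes were called lower, 26.3% higher and 49.8% in all. The value for PEG10, −0.50 (adjusted p = 0.0496), was at the edge of the threshold and missed it under DESeq2 (−0.49) and when any 1 library of vehicle or DHT was left out. MET fell by 0.97 (adjusted p = 0.00313). At 24 h, DHT against enzalutamide gave 4 called lower (background 33.6% lower, 31.3% higher and 64.9% in all), with MET at −0.93 (adjusted p = 0.00299) and PEG10 at 0.17 (adjusted p = 0.502). At 4 h the same contrast called OPRK1 (−0.86, adjusted p = 6.11e-07) and CAMK2N1 (−0.27, adjusted p = 2.54e-05) lower, where 15.8% of genes were called, 8.49% higher and 7.28% lower.

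The headers carry 3 prefixes (ZC1, ZC2 and ZC3), whose meaning the labels do not give, and both replicates of DHT 4 h, enzalutamide 4 h and enzalutamide 24 h each carry a single prefix. Vehicle replicate 1 has a column under all 3, which allowed each library to be set against vehicle of its own prefix. DHT 24 h, whose replicates carry different prefixes, gave log2 ratios of −2.18 and −2.04 for OPRK1, −1.59 and −1.64 for CAMK2N1, −1.49 and −1.55 for DDC, −1.21 and −0.95 for MET, and −0.39 and 0.00 for PEG10. Within its prefix, OPRK1 gave −0.72 and −0.71 after 4 h of DHT and 0.39 and 0.43 after 24 h of enzalutamide, and CAMK2N1 gave 0.34 and 0.33 after 24 h of enzalutamide. A single vehicle column of replicate 1 holds only part of the counts that were summed elsewhere, and these ratios carry no test.

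In siControl cells 25 μM enzalutamide gave the same directions as 10 μM did at 24 h for OPRK1, CAMK2N1 and DDC, at a higher dose and in other libraries. OPRK1 and CAMK2N1 were higher with the antagonist, DDC was lower, MET was higher and PEG10 did not pass the test. That made 3 genes called higher and 1 called lower by limma, where 42.1% of all genes were called, 17.7% higher and 24.4% lower.

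**Figure D2:**
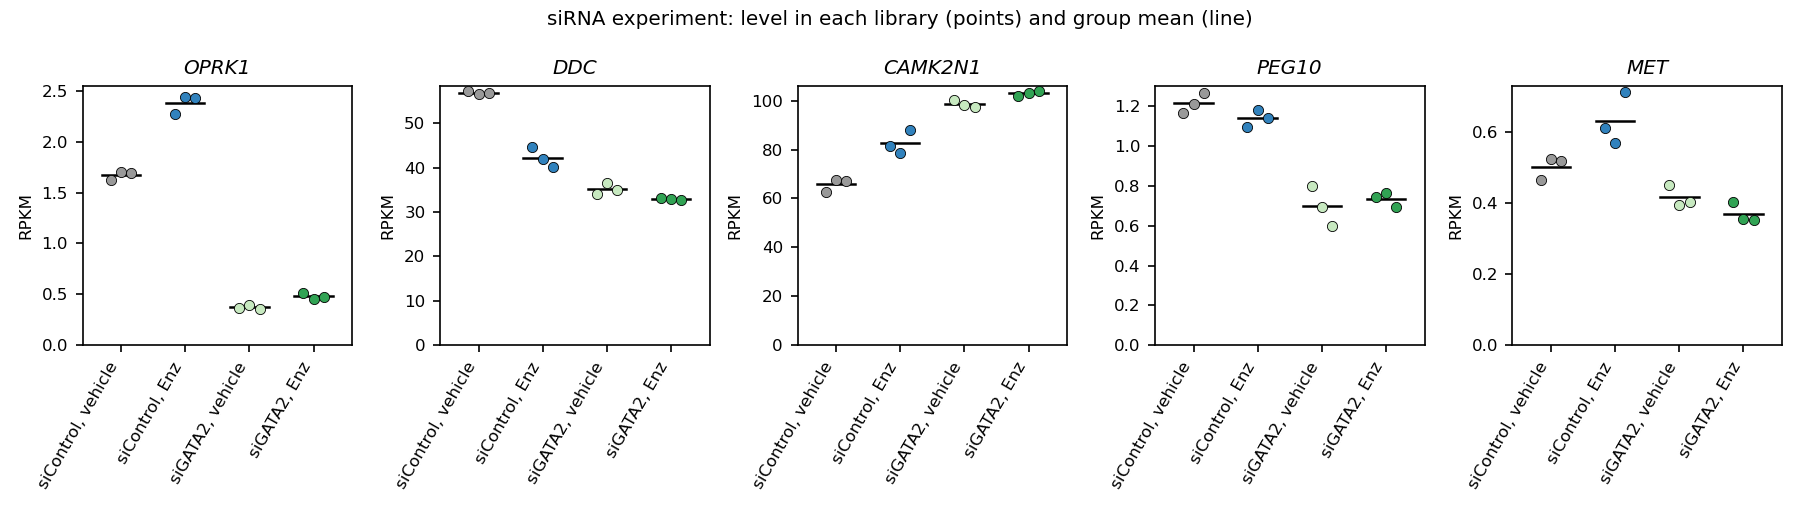
Level of each gene in RPKM (reads scaled to gene length and library depth, linear axis from 0) in the 12 siRNA libraries, with points for the 3 replicates and a line for their mean. The siGATA2 libraries lay below all siControl libraries for OPRK1, DDC, PEG10 and MET and above them for CAMK2N1. The gap was narrow for MET, whose siGATA2 libraries lay between 0.353 and 0.452 RPKM and whose lowest siControl library was at 0.463 RPKM.

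OPRK1 measured 1.63, 1.71 and 1.69 RPKM in siControl cells with vehicle and 2.27, 2.44 and 2.43 RPKM with enzalutamide. The groups did not overlap, and the log2 fold change was 0.48 ± 0.07 (adjusted p = 0.000198). In siGATA2 cells it measured 0.370, 0.398 and 0.354 RPKM with vehicle and 0.509, 0.457 and 0.475 RPKM with enzalutamide. Those groups did not overlap either, but the change of 0.29 missed the threshold (adjusted p = 0.121), and the interaction, which tests whether the response to enzalutamide differed between siControl and siGATA2 cells, was not called for OPRK1 (−0.19, adjusted p = 0.171, 95% interval −0.40 to 0.02).

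GATA2 silencing lowered OPRK1 to 0.267 of its siControl level with vehicle (−1.90 ± 0.07, adjusted p = 3.71e-09) and to 0.234 with enzalutamide (−2.10 ± 0.07, adjusted p = 2.03e-09). Only 0.437% and 0.304% of all genes had fold changes as low. OPRK1 thus had its highest level in siControl cells with enzalutamide, and its siGATA2 means were 15.7% and 20.2% of that level. These values are on the log2(RPKM + 0.1) scale, which understates changes at levels this low: with a pseudocount of 1 they were −0.96 and −1.19, still called.

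DDC measured 57.2, 56.6 and 56.8 RPKM in siControl cells with vehicle and 44.6, 42.0 and 40.1 RPKM with enzalutamide. All enzalutamide libraries lay below vehicle (−0.43 ± 0.04, adjusted p = 7.56e-06). In siGATA2 cells it measured 34.2, 36.6 and 34.9 RPKM with vehicle and 32.6 to 33.1 RPKM over the 3 libraries with enzalutamide, which were lower than every siControl library. The fall with siGATA2 was 0.69 with vehicle (fold 0.620, adjusted p = 6.91e-08) and 0.36 with enzalutamide (fold 0.781, adjusted p = 1.07e-05) in size on the log2 scale. The response to enzalutamide in siGATA2 cells, −0.10, missed the threshold (adjusted p = 0.377), and here the difference between the responses was itself called (interaction 0.33 ± 0.05, adjusted p = 0.00114).

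CAMK2N1 went the opposite way. It measured 62.8, 67.6 and 67.1 RPKM in siControl cells with vehicle and 81.3, 78.5 and 88.0 RPKM with enzalutamide, a rise of 0.33 ± 0.04 (adjusted p = 0.000115). In siGATA2 cells it measured 100.1, 98.1 and 97.4 RPKM with vehicle and 101.8, 103.3 and 103.9 RPKM with enzalutamide, above every siControl library. GATA2 silencing raised it by 0.58 ± 0.04 with vehicle (adjusted p = 6.07e-07) and 0.32 ± 0.04 with enzalutamide (adjusted p = 6.32e-05). Within siGATA2 cells enzalutamide gave 0.06 (adjusted p = 0.641), and the interaction was −0.26 ± 0.06 (adjusted p = 0.00820). The highest and the lowest CAMK2N1 condition were thus siGATA2 with enzalutamide and siControl with vehicle, an order in which siControl enzalutamide lay between.

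PEG10, which gave no call with ligand against vehicle, was lower in siGATA2 cells. It measured 1.17, 1.21 and 1.27 RPKM in siControl cells with vehicle, 1.10, 1.18 and 1.14 RPKM in siControl cells with enzalutamide, 0.798, 0.696 and 0.597 RPKM in siGATA2 cells with vehicle, and 0.745, 0.763 and 0.694 RPKM in siGATA2 cells with enzalutamide. Every siGATA2 library lay below every siControl library, while vehicle and enzalutamide overlapped within either siRNA. The fold was 0.603 with vehicle (−0.73 ± 0.09, adjusted p = 5.06e-05) and 0.673 with enzalutamide (−0.57 ± 0.09, adjusted p = 0.000307), and the interaction was not called (0.16, adjusted p = 0.435). With a pseudocount of 1 the differences were −0.39 and −0.30, also called.

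MET measured 0.463, 0.523 and 0.517 RPKM in siControl cells with vehicle, 0.611, 0.570 and 0.711 RPKM with enzalutamide, 0.452, 0.394 and 0.402 RPKM in siGATA2 cells with vehicle, and 0.402, 0.356 and 0.353 RPKM with enzalutamide. The siControl enzalutamide libraries lay highest. Those of siGATA2 overlapped each other and lay below every siControl library, the nearest by a narrow gap (0.452 against 0.463 RPKM). The rise with enzalutamide in siControl cells (0.28, adjusted p = 0.0354) lost its call when any library of siControl vehicle, or the first or the third library of siControl enzalutamide, was left out, with an adjusted p of 0.130 without the third. With siGATA2, MET was lower under enzalutamide (−0.63 ± 0.09, adjusted p = 0.000176, and −0.25 with a pseudocount of 1, also called), and with vehicle the value of −0.22 missed the threshold (adjusted p = 0.0691). The interaction of −0.41 (adjusted p = 0.0446) was lost when any of 10 of the 12 libraries was left out, among them the third of siControl enzalutamide (−0.33, adjusted p = 0.0911).

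Taking the 5 genes side by side, siGATA2 with vehicle gave 3 called lower and 1 called higher, where 31.4% of all genes were called lower, 24.2% higher and 55.6% in all. With enzalutamide it gave 4 lower and 1 higher, against 28.1%, 26.3% and 54.5%. Enzalutamide in siGATA2 cells called 0 of the 5 in limma, where it called 0.412% of all genes (0.221% higher and 0.191% lower), and at an unadjusted p below 0.05 it gave 2 of 5, OPRK1 and DDC, against 10.8% of all genes. The interaction was called higher for 1 gene and lower for 2, against 15.0% and 10.8% of all genes and 25.8% in all. The comparisons within each experiment share control libraries, so the values of one gene across them are not independent of each other.

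**Figure D3:**
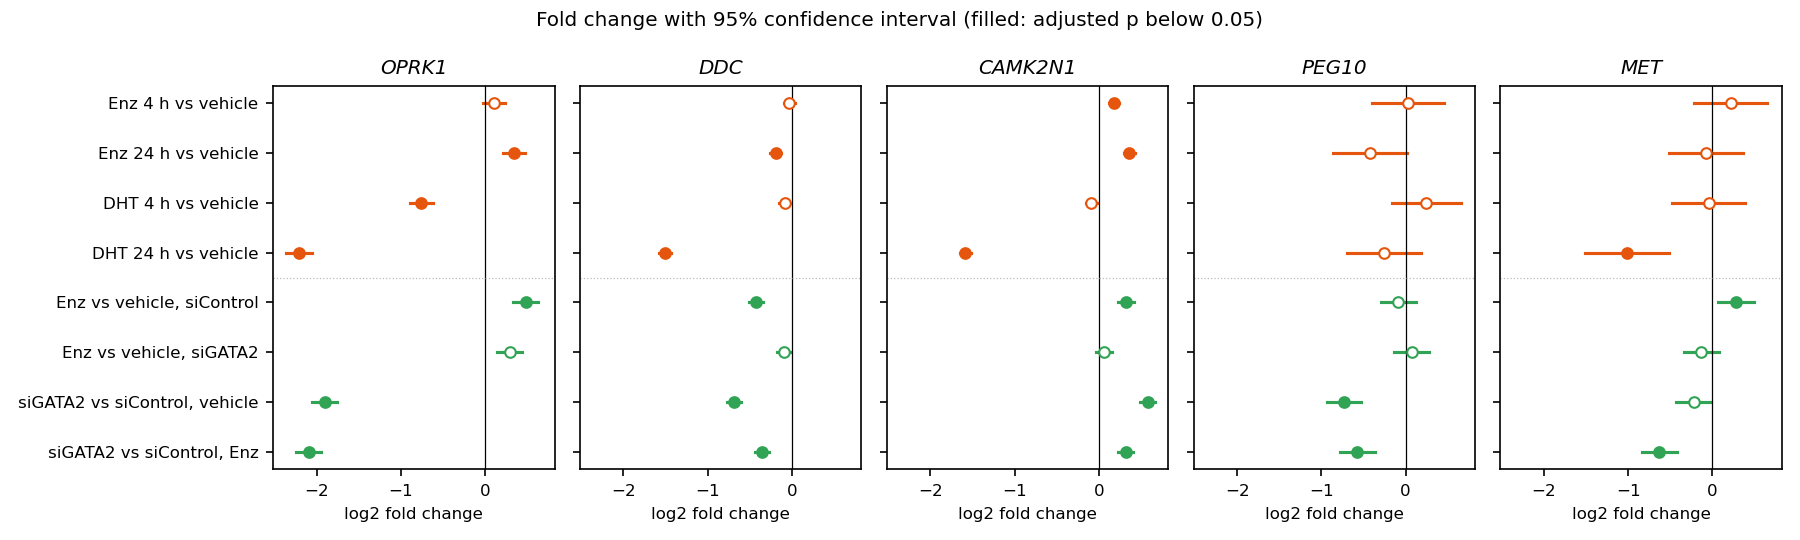
Log2 fold change of each gene (points) with its 95% confidence interval (lines) in the 4 ligand comparisons against vehicle (orange) and the 4 pairwise siRNA comparisons (green); filled points had an adjusted p below 0.05. OPRK1, DDC and CAMK2N1 carry narrow intervals, and OPRK1 had the lowest values both with DHT 24 h (−2.21) and with siGATA2 (−1.90 and −2.10).

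With vehicle, KLK3 had a mean of 791 RPKM in siControl and 24.1 RPKM in siGATA2 cells, while DDC, OPRK1 and PEG10 fell and CAMK2N1 rose. The part of the lower KLK3 level, of the immune, neuroendocrine and fibroblast sums that were higher in siGATA2 cells, and of those that moved with 24 h of DHT, in the values of the 5 genes was not tested. In bulk RNA fewer cells carrying a transcript and less transcript per cell cannot be told apart.

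Per length, CAMK2N1 and DDC were the most abundant of the 5 in siControl cells with vehicle (65.8 ± 2.64 and 56.9 ± 0.317 RPKM, SD, n = 3), followed by OPRK1 (1.67 ± 0.0416), PEG10 (1.22 ± 0.0508) and MET (0.501 ± 0.0328). Over the 10 ligand libraries log2 levels of OPRK1, DDC and CAMK2N1 ran together, with Pearson's r of 0.90 to 0.97 between their pairs. Over the 12 siRNA libraries OPRK1 and DDC gave 0.74, but CAMK2N1 gave −0.77 with OPRK1 and −0.99 with DDC. PEG10 gave 0.01 with OPRK1 over the ligand libraries and 0.94 over the siRNA libraries. These coefficients describe libraries that fall into groups of 2 or 3 replicates, and they carry no test.

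The genes most alike in pattern were ranked by the smaller of the r values over the 10 ligand and 12 siRNA libraries, among 15404 genes tested in both. For OPRK1 they were MVB12B (0.99), SEMA6A (0.99) and SESN1 (0.98). For DDC they were C11orf95 (0.98), ACKR3 (0.98), an atypical chemokine receptor, and SOX4 (0.97), a transcription factor. For CAMK2N1 they were TAPT1 (0.99), MFSD6 (0.98) and MARCH1 (0.98). The likeness was lower for PEG10, with NRP1 (0.83), USP22 (0.82) and CRISPLD2 (0.82), and for MET, with FDX1 (0.91), TMEM38B (0.91) and BTG2 (0.91).

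Of 16 other genes reported as androgen-repressed, 14 were tested in the ligand experiment. After 24 h of DHT 10 fell and 1 rose, beside 23.2% and 26.9% of all genes. Their median log2 fold change was −0.74 against 0.00 over all genes. UGT2B15, which glucuronidates DHT metabolites, went from 421 to 192 CPM (−1.13, adjusted p = 2.81e-09). BCHE (butyrylcholinesterase) fell by 1.13 (adjusted p = 5.15e-10), ACKR3 fell by 1.00 (adjusted p = 3.07e-10) and UGT2B17, a close relative of UGT2B15 with which reads can be shared, fell by 0.94 (adjusted p = 9.47e-10). TERT, the catalytic subunit of telomerase, rose instead, from 1.43 to 5.19 CPM (1.85, adjusted p = 2.10e-07). At 4 h only ACKR3, BCL2 and ERBB2 of this list were lower and NRP1 was higher, beside 2.11% and 4.66% of all genes.

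The same list did not rise with the antagonist. After 24 h of 10 μM enzalutamide 6 of the 14 fell and FOLH1 (prostate-specific membrane antigen) rose, beside 17.0% and 16.4% of all genes. In siControl cells with 25 μM 9 of 15 fell and 0 rose in limma, at an adjusted or an unadjusted p below 0.05. Of all genes, 24.4% fell and 17.7% rose in that comparison at an adjusted p below 0.05. The median of the list there was −0.29 against −0.02 over all genes. DDC fell with the antagonist, as did UGT2B15, UGT2B17, BCHE and ACKR3, whereas OPRK1 and CAMK2N1 rose. With siGATA2 and vehicle 8 of the 15 fell and 3 rose, beside 31.4% and 24.2% of all genes, so the share that rose was near that of all genes. BCHE (60.7 to 24.4 RPKM), UGT2B17 (29.2 to 11.9 RPKM) and ACKR3 (61.9 to 37.8 RPKM) fell, while CLU (clusterin, 14.1 to 78.4 RPKM), ERBB2 (61.2 to 124 RPKM) and FOLH1 (147 to 199 RPKM) rose. CAMK2N1 shared this combination, lower with DHT for 24 h and higher with siGATA2, with CLU, ERBB2 and FOLH1, and OPRK1 and DDC shared the other with BCHE, UGT2B15, UGT2B17, ACKR3 and NRP1.

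**Figure D4:**
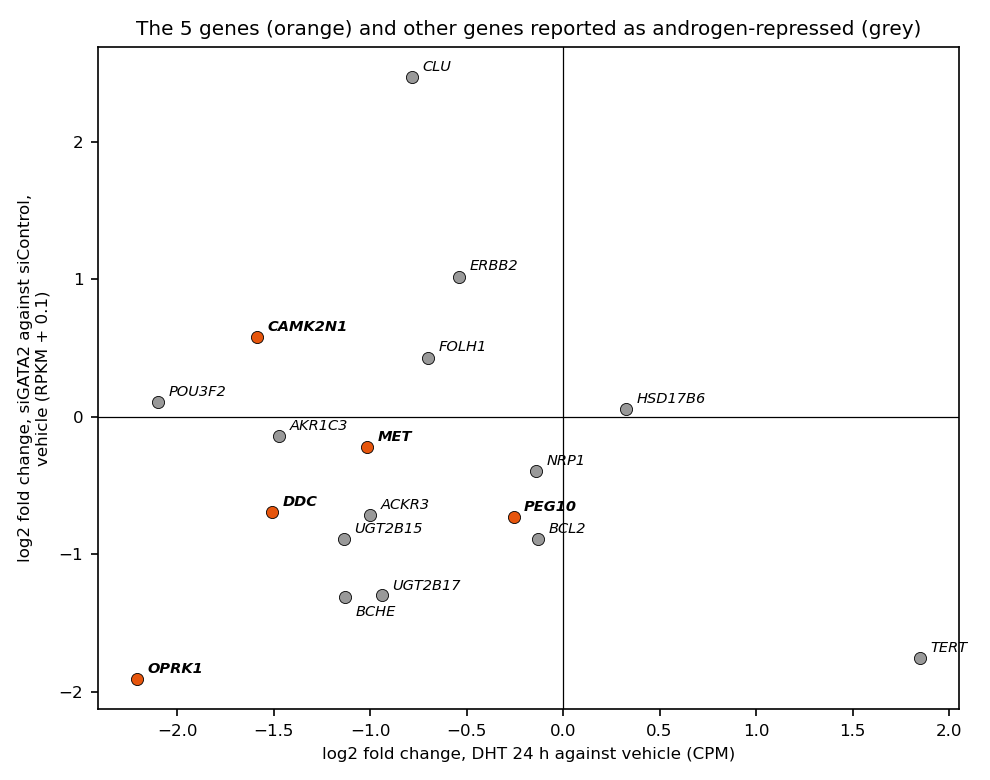
Log2 fold change after 24 h of DHT (horizontal) and with siGATA2 in vehicle (vertical) for the 5 genes (orange) and 13 other genes reported as androgen-repressed (grey). OPRK1 lies furthest to the lower left (−2.21 and −1.90), CAMK2N1 lies at the upper left (−1.59 and 0.58), and TERT lies at the lower right (1.85 and −1.75).

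Around OPRK1, its ligand precursor PDYN was at or near 0 in every condition, as a mean of at most 0.0199 CPM. Of 9 opioid-list genes tested beside OPRK1 (receptors, G-protein subunits, arrestins and channels), 3 rose and 4 fell after 24 h of DHT, among them KCNJ3, a potassium channel opened by G proteins, which fell by 1.15 (adjusted p = 1.30e-06) from 6.02 to 2.70 CPM. With siGATA2 and vehicle 2 of 11 rose and 3 fell, and the median was −0.11 against −0.03 over all genes. Over all genes 26.9% rose and 23.2% fell in the first of these comparisons and 24.2% rose and 31.4% fell in the second, so calls in the lists around the 5 genes are read beside these shares.

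Around DDC, TH, the rate-limiting enzyme that makes its substrate L-DOPA, had mean levels of at most 0.0654 RPKM. MAOA, which degrades the amine products, was abundant, and it rose with DHT by 0.25 at 4 h (adjusted p = 0.000105) and 0.24 at 24 h (adjusted p = 2.04e-05) and fell with enzalutamide by 0.45 at 24 h (adjusted p = 9.53e-08). It thus moved opposite to DDC with DHT and with it under the antagonist and under siGATA2 (88.9 to 45.5 RPKM with vehicle). Of 9 amine genes tested, 4 rose and 1 fell after 24 h of DHT (26.9% and 23.2% of all genes). With siGATA2 and vehicle 5 of 16 fell, near the 31.4% of all genes, and 2 rose (24.2% of all genes), and PCBD1, which recycles the tetrahydrobiopterin cofactor, fell by 1.60 (adjusted p = 6.49e-11).

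Around CAMK2N1, the kinase gene CAMK2A was at or near 0, CAMK2B and CAMK2G were expressed and not called with any ligand against vehicle, and CAMK2D was called at 24 h. CAMK2D rose with enzalutamide (13.3 to 20.0 CPM, 0.58, adjusted p = 1.50e-05) and fell with DHT (to 9.92 CPM, −0.42, adjusted p = 0.000248), the directions of CAMK2N1. In siControl cells it rose with enzalutamide from 3.67 to 6.34 RPKM (0.77, adjusted p = 1.58e-07), and with siGATA2 it was at 5.05 RPKM with vehicle (0.45, adjusted p = 2.17e-06) and at 5.55 RPKM with enzalutamide (−0.19, adjusted p = 0.00136). CAMK1D, a related kinase, fell by 1.53 after 24 h of DHT (adjusted p = 1.30e-08). Of 12 genes of this list tested, 2 rose and 2 fell after 24 h of DHT, beside 26.9% and 23.2% of all genes, and 7 of 15 rose and 2 fell with siGATA2 and vehicle, beside 24.2% and 31.4%.

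Around PEG10, its imprinted neighbour SGCE had mean levels of at most 0.0656 CPM and 0.158 RPKM. Of 10 genes tested among its neighbours and its retrotransposon-derived relatives, 1 rose and 3 fell (LDOC1, PON2 and RTL5) after 24 h of DHT, and with siGATA2 and vehicle 2 of 14 rose and 4 fell; the shares that fell were near those of all genes (23.2% and 31.4%). Around MET, of 14 genes for its activating proteases, their inhibitors, its adaptors and its neighbours, 3 rose and 8 fell after 24 h of DHT (26.9% and 23.2% of all genes) with a median of −0.16. With siGATA2 and vehicle 9 of 17 rose and 4 fell (24.2% and 31.4% of all genes), with a median of 0.26 against −0.03 over all genes. SPINT1, an inhibitor of the protease that activates hepatocyte growth factor, rose by 1.06 (adjusted p = 8.03e-08). HGF was not analysed here.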

How the data were processed

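RNA-seq of LNCaP cells from 2 experiments was used, with every library placed in its group by its label. In the ligand experiment the authors aligned reads with TopHat2 2.0 and quantified genes in Partek (genome build hg19, per the submitters' processing notes), and the deposited values are their estimated counts, not normalized; 57.1% to 63.7% of values above 0 were whole (tolerance 1e-06). They were rounded before testing. The 3 vehicle columns numbered replicate 1 in the headers were summed, although the labels list 4 vehicle replicates; agreement was measured as the mean chi-square over genes with at least 20 counts, and the columns were also kept apart as an alternative. In the siRNA experiment the deposited values are RPKM computed by the authors. Their steps at low values gave the depths, and no counts were taken from them, so depth-based intervals were not computed. No column of values was left unused.

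The rounded counts were fitted with edgeR 4.0.16 under R 4.3.3 (quasi-likelihood, TMM factors, default filter on low counts) in 1 model of 10 libraries and 5 conditions, and levels are counts scaled to library size (CPM). RPKM were tested with limma 3.58.1 with a variance trend on log2(RPKM + 0.1), keeping genes detected in no fewer than 3 libraries, in 1 model of 12 libraries and 4 conditions. A gene was called at a Benjamini-Hochberg adjusted p below 0.05 over all genes tested in that comparison, 2-sided; the study's own rule, over 2-fold with an unadjusted p below 0.05, was an alternative, as was DESeq2 1.42.0. The edgeR test of 24 h of DHT and the limma test of enzalutamide in siControl cells, each against vehicle, were tried on simulated data. The other comparisons and steps were not. The gene tables hold no strand or multi-mapping record, so genes with close copies (such as UGT2B15 and UGT2B17) are uncertain.

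The 5 genes and all lists were chosen with earlier results of these data known. Further genes named are list genes called with an absolute log2 fold change of at least 1 and a mean level of at least 1, fixed partners and checks, and the 3 genes most alike to each of the 5. FOLH1, ACKR3, ENO2, CD68, COL1A1 and other list genes given as examples were named after their values were seen. Some genes of the lists are counted in the list totals but not reported here by name. Ratios within a header prefix were added after the data were seen. Promoters are from RefSeq (GRCh38.p14), and windows are shown and searched for 2 of the 5 genes, DDC and MET. For the 5 genes no entry on chromosome 8, where OPRK1 lies, was taken.

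Conditions share replicate numbers in the labels, which do not say what a number marks. The deviation of each library from its group mean correlated with that of the library of the same number at −0.10 to 0.06 in the ligand experiment and −0.34 to 0.28 in the siRNA experiment. Only for siControl against siGATA2 cells under enzalutamide were all 3 pairs over 0.1 (0.113, 0.241 and 0.148). The values given for every comparison, this one too, come from models without pairing. With the replicate number as a block, an alternative, no call of the 5 genes changed in that comparison.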

Additional observations from a re-analysis of the deposited data

Results flagged for a closer look

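The 11 effects listed here differed between times or between siControl and siGATA2 cells by a test of the difference itself. The time of the vehicle is not given, so time with a ligand and time in culture cannot be told apart. For either ligand the 4 h and 24 h libraries also carry different header prefixes, which cannot be told apart from time in these differences. Between 4 h and 24 h of DHT the log2 fold changes were −1.45 for OPRK1, −1.42 for DDC, −1.50 for CAMK2N1, −0.50 for PEG10 and −0.97 for MET. For OPRK1 the 24 h change added to one already called at 4 h, whereas DDC, CAMK2N1 and MET had no call at 4 h. Between 4 h and 24 h of enzalutamide they were 0.24 for OPRK1, −0.16 for DDC and 0.18 for CAMK2N1. The response to enzalutamide differed between siGATA2 and siControl cells by 0.33 for DDC, −0.26 for CAMK2N1 and −0.41 for MET, which for DDC and CAMK2N1 brought the response nearer to 0 in siGATA2 cells and for MET changed its sign from 0.28 to −0.13, the latter without a call.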

How the results depend on the processing

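The 65 values of the 5 genes (13 comparisons) were recomputed 1335 times: 1259 kept direction and side of the threshold, 59 no longer passed, 7 newly passed and 10 changed sign. The falls of OPRK1, DDC, CAMK2N1 and MET after 24 h of DHT and all calls with siGATA2 for OPRK1, DDC, CAMK2N1 and PEG10 kept direction and call under every alternative except the study's own rule.

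That rule dropped changes under 2-fold, by its construction. With 24 h of enzalutamide these were OPRK1 (0.35), DDC (−0.19) and CAMK2N1 (0.36), and at 4 h CAMK2N1 (0.18). With DHT they were OPRK1 at 4 h (−0.76) and, between times, PEG10 (−0.50) and MET (−0.97). Between enzalutamide times they were OPRK1 (0.24), DDC (−0.16) and CAMK2N1 (0.18), and for DHT against enzalutamide OPRK1 (−0.86) and CAMK2N1 (−0.27) at 4 h and MET (−0.93) at 24 h. With enzalutamide in siControl cells they were OPRK1 (0.48), DDC (−0.43), CAMK2N1 (0.33) and MET (0.28). With siGATA2 and vehicle they were DDC (−0.69), CAMK2N1 (0.58) and PEG10 (−0.73), with siGATA2 and enzalutamide DDC (−0.36), CAMK2N1 (0.32), PEG10 (−0.57) and MET (−0.63), and for the interaction DDC (0.33), CAMK2N1 (−0.26) and MET (−0.41).

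PEG10 between DHT times lost its call with vehicle replicate 1 from the ZC1 or the ZC3 column alone (−0.50 in both), with RLE factors (−0.50), DESeq2 (−0.49) and the replicate block (−0.50). MET lost the interaction call with a pseudocount of 0.01 (−0.49), no filter (−0.41) and the replicate block (−0.41), and its rise with enzalutamide in siControl cells with the block (0.28) and with only the 2 conditions fitted (0.28). The replicate block changed no other call of the 5 genes. Calls gained were DDC and CAMK2N1 at 4 h of DHT with all vehicle columns separate (−0.090 and −0.092), CAMK2N1 there with library size alone (−0.10), the OPRK1 interaction with a pseudocount of 1 (−0.23), and without a variance trend OPRK1 with enzalutamide in siGATA2 cells (0.29) and MET with siGATA2 and vehicle (−0.22). Uncalled values changed sign for PEG10 at 4 h of enzalutamide (−0.037) with vehicle replicate 1 from the ZC2 column, and for MET at 24 h of enzalutamide (0.019) and 4 h of DHT (0.054) with the ZC3 column. The cause was not tested.

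Leaving out each library in turn gave, for results that changed sign or call, PEG10 −0.16 to 0.18 at 4 h of enzalutamide, −0.62 to −0.37 between DHT times, −0.045 to 0.45 for DHT against enzalutamide at 24 h and −0.022 to 0.16 with enzalutamide in siGATA2 cells. It gave MET −0.33 to 0.11 at 24 h of enzalutamide, −0.29 to 0.16 at 4 h of DHT, 0.20 to 0.34 with enzalutamide in siControl cells, −0.27 to −0.19 with siGATA2 and vehicle and −0.47 to −0.33 for the interaction. It gave OPRK1 0.22 to 0.26 between enzalutamide times. A pseudocount of 1 brought the siGATA2 differences of OPRK1 to −0.96 and −1.19, of PEG10 to −0.39 and −0.30 and of MET under enzalutamide to −0.25, all still called. A lone library of a condition was then assumed to vary like the others.

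Counts of all genes moved by over 1.5 times mainly at 4 h and in siGATA2 cells. At 4 h, enzalutamide called 1080 higher (401 to 1697 over the alternatives) and 1039 lower (380 to 1504), and DHT called 725 higher (443 to 989) and 328 lower (120 to 549). At 24 h enzalutamide called 2549 higher (1310 to 3014). Between enzalutamide times 1826 were higher (837 to 2079) and 2003 lower (1242 to 2295), and at 4 h DHT against enzalutamide called 1320 higher (740 to 1660) and 1133 lower (496 to 1335). Enzalutamide in siGATA2 cells called 45 higher (14 to 53) and 39 lower (7 to 50). These ranges leave out the study's rule, which called 588 genes lower after 24 h of DHT in place of 3601. Depth limits PEG10 and MET most, whose SE in the ligand comparisons was near 0.2 against 0.03 for DDC and CAMK2N1.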
